A study of Mus musculus with 11 samples.

Results

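The IFIT, OAS and Mx antiviral effectors are genes that interferon switches on and whose proteins interfere with the RNA or the assembly of viruses. They were followed here in mouse microglia, the macrophages of the brain, through 10 genes chosen by symbol: Ifit1, Ifit2, Ifit3, Rsad2, Oasl1, Oasl2, Oas1a, Oas2, Mx1 and Mx2. All 10 were present among the 16934 genes of the count table, and all 10 passed the filter on low counts that left 11276 genes for testing. The question put to the data was how the level of each gene differed between microglia kept alone, microglia kept with neurons, and microglia kept with neurons that carried α-synuclein fibrils.

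The series holds 11 libraries made with a 3′ mRNA kit from primary microglia prepared from P0-3 pups of the C57BL/6 strain and held in culture for 7 to 10 days. Microglia alone gave 4 libraries and had no neurons, no fibrils and no stated treatment. Microglia co-cultured for 6 h with untreated primary cortical neurons at DIV14 gave 3 libraries. Microglia co-cultured for 6 h with cortical neurons that had been exposed to 0.1 µM α-synuclein fibrils carrying the Atto488 dye for 16 h, then washed, gave 4 libraries. α-Synuclein is the neuronal protein that aggregates in Parkinson's disease. The strain and the microglial preparation were shared by all groups, the neurons by both co-cultures. Separate cultures or animals are not named for the libraries, so a p-value measures only the spread between these libraries, which may be technical. How microglia were parted from neurons before lysis is not stated in the labels either. Libraries are numbered within their group in order of deposition, and the numbers do not pair libraries across groups.

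Type I interferon binds the receptor made of Ifnar1 and Ifnar2, whose kinases Jak1 and Tyk2 set off the complex ISGF3, of which Irf9 is the DNA-binding part. ISGF3 binds the interferon-stimulated response element, a DNA motif built on repeated GAAA, in the promoters of the effector genes. Ifit1 of the IFIT family binds viral RNA by its end, and the OAS enzymes make short oligoadenylates from ATP when they meet double-stranded RNA. Viperin (Rsad2) makes a chain-terminating nucleotide, and the Mx proteins are large GTPases that trap viral components. In the C57BL/6 strain Mx1 is known to carry a deletion and Mx2 a frameshift, so that neither RNA encodes a working protein there.

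The promoters of 7 of the 10 genes were found in the RefSeq promoter table for GRCm38.p6, the assembly of mm10. The bases from 200 to 1 before the RefSeq start are shown 5′ to 3′ on the strand of the gene for the genes with matches to the response element, for the near-copy Ifit3b, and for Oasl1, in which no match was found. Capitals mark each match to GAAANNGAAA or, on the other strand, TTTCNNTTTC.
Ifit1 (chr19:34640689-34640888, plus strand): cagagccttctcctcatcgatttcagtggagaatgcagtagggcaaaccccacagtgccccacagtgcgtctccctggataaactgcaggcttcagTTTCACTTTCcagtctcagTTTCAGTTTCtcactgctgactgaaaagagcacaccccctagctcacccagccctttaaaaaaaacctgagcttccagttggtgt
Ifit3 (chr19:34583329-34583528, plus strand): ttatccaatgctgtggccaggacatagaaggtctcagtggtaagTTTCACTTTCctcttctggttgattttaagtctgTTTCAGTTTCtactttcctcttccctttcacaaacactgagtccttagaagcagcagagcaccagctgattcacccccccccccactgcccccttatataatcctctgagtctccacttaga
Ifit3b (chr19:34607757-34607956, plus strand): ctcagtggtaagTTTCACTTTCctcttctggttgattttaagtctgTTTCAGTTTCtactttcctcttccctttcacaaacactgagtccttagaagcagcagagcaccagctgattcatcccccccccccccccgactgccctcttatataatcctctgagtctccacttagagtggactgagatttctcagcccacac
Rsad2 (chr12:26456453-26456652, minus strand): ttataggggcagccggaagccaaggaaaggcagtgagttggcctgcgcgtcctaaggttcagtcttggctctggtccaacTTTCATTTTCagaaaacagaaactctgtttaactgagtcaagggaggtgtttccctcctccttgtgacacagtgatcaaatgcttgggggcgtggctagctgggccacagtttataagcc
Oas1a (chr5:120907526-120907725, minus strand): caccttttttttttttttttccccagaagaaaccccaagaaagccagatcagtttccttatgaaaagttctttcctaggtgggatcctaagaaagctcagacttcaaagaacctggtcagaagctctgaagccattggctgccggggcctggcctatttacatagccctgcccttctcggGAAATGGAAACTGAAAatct
Oasl1 (chr5:114923040-114923239, plus strand): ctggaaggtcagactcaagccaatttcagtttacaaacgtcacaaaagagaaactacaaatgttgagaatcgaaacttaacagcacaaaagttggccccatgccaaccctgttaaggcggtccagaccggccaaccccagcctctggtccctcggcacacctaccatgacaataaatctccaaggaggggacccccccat

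Matches were sought on both strands of the whole 300-base window, from 250 bases before to 50 bases after the start. Of the 7 genes with an entry, 4 held a match (Ifit1, Ifit3, Rsad2 and Oas1a) and 3 held 2 matches (Ifit1, Ifit3 and Oas1a), against 3.44% and 0.225% of the 32851 promoters in the table. The first base of the matches lay at -104 and -85 in Ifit1, at -156 and -122 in Ifit3 and at -120 in Rsad2, all on the strand opposite to the gene. In Oas1a the 2 matches lay on the gene's own strand at -20 and -14 and overlap one another. The Ifit1 stretch also holds the start of Ifit1bl2, which runs the other way, and both matches fall in the promoter entry of that gene too. No match to these letters was found in Oasl1, Oasl2 or either of the 2 starts of Ifit2. Promoters of Oas2, Mx1 and Mx2 were not analysed here.

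**Figure D1:**
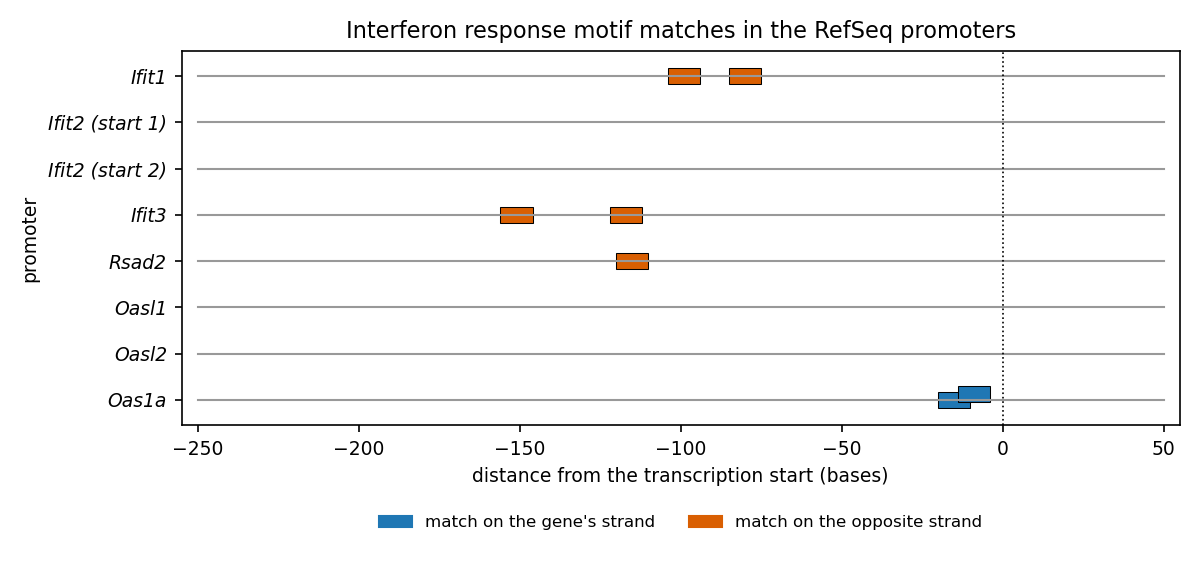
Matches to the interferon response motif in the 8 promoter entries of the 7 genes, by distance in bases from the RefSeq start (250 before to 50 after). Boxes are matches 10 bases long, blue on the gene's strand and orange on the opposite one. Those of Ifit1, Ifit3 and Rsad2 begin between -156 and -85, while those of Oas1a begin at -20 and -14.

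The genes lie in clusters. On chromosome 19 the IFIT cluster runs from Ifit2 (chr19:34550694-34576419) through Ifit3 (chr19:34583531-34588731) to Ifit1 (chr19:34640871-34650009), all on the plus strand. Chromosome 5 holds Oasl2 (chr5:114896936-114912234) and Oasl1 (chr5:114923240-114937915) side by side on the plus strand, and Oas2 (chr5:120730333-120749853) and Oas1a (chr5:120896256-120907521) on the minus strand. Rsad2 lies on chromosome 12 (chr12:26442746-26456452, minus strand) next to Cmpk2. Mx1 (chr16:97447035-97462907, minus strand) and Mx2 (chr16:97535308-97560900, plus strand) lie on chromosome 16, and the GENCODE annotation lists Mx2 as a polymorphic pseudogene. The spans are those of the GENCODE annotation on GRCm38.

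Total counts per library ran from 8253070 to 16802451, genes detected from 9157 to 11739, and the mean share of the ribosomal transcript Rn45s was 19.4% in microglia alone, 12.6% with untreated neurons and 12.8% with fibril-loaded neurons. The summed level of 15 microglial marker genes, all of them detected in every group, ranged from 12346 to 13675 CPM (counts scaled to a common library size) in microglia alone. It lay between 15890 and 19889 CPM with untreated neurons and between 13600 and 20055 CPM with fibril-loaded neurons. Cx3cr1, the fractalkine receptor of microglia, averaged 602, 1880.1 and 1858 CPM in the 3 groups. It was called higher with untreated neurons (edgeR adjusted p = 0.00613) and with fibril-loaded neurons (0.00527). P2ry12, a marker of resting microglia in the brain, was low throughout at 2.28, 9.70 and 6.88 CPM. Cd68 had a lower mean in both co-cultures, at 932, 813 and 720 CPM. Trem2 had a lower mean only with untreated neurons, and Csf1r and Sall1 only with fibril-loaded neurons. The other microglial markers had higher means in both co-cultures. The 16 neuronal markers summed to between 1289 and 1562 CPM alone, 610 and 876 CPM with untreated and 777 and 1213 CPM with fibril-loaded neurons, most of it from Basp1. Snap25, a defining gene of neurons, had no count in any library, and the synaptic vesicle gene Syp had none in either co-culture. Some other neuronal markers were read in microglia alone and had lower means in co-culture. Dcx, a gene of young neurons, measured 48.6 ± 22.4 CPM in microglia alone, 0.0403 ± 0.0698 with untreated neurons and 2.59 ± 3.10 with fibril-loaded neurons. Dcx was called lower with untreated neurons (edgeR adjusted p = 0.0268) and in the mean of both (0.00661). Tubb3, a neuronal tubulin, had means of 18.9, 0.747 and 3.06 CPM in the same order, with both co-cultures below every library alone, and Map2, a dendritic microtubule gene, had means of 25.04, 5.08 and 5.58 CPM. Neither of these passed. Nefl, Nefm, Slc17a7 and Eno2 had a higher mean in a co-culture than alone. Their means in the 3 groups were 0.155, 6.59 and 0.117 CPM for Nefl and 0, 0 and 1.52 CPM for Nefm. They were 0, 0 and 2.12 CPM for Slc17a7 and 3.63, 0 and 7.07 CPM for Eno2. Each higher mean rested on the highest library of its group, and the other libraries of that group had no count. That library had 19.8 CPM for Nefl, 6.07 for Nefm, 8.47 for Slc17a7 and 28.3 for Eno2. Nefl, Nefm and Slc17a7 did not pass the filter. Of the 8 neutrophil and monocyte markers 4 were in the table, and their sum reached at most 2.58, 13.3 and 8.82 CPM in the 3 groups. Ly6g, which defines neutrophils, had no count. The 8 astrocyte markers averaged a sum of 25.5 CPM alone (17.9 to 39.8). The sum was 51.2 CPM with untreated neurons (24.6 to 88.9) and 63.0 CPM with fibril-loaded neurons (17.0 to 101.8). These means were higher in co-culture and the ranges overlapped. Gfap, which defines astrocytes, had no count alone and averaged 7.21 and 1.13 CPM in the co-cultures. It had no count in 2 of 3 untreated and 3 of 4 fibril libraries and did not pass the filter. S100b had a lower mean in both co-cultures than alone, at 5.35, 4.17 and 4.64 CPM in the 3 groups. Aldoc and Gja1 had lower means with untreated neurons only, and the other astrocyte markers had higher means in both co-cultures. Summed means in the 3 groups were 211, 238 and 167 CPM for 9 oligodendrocyte markers, 63.0, 49.5 and 41.2 CPM for endothelial markers (5 of 7 in the table), and 9.502, 0.916 and 1.72 CPM for fibroblast and mural markers (7 of 8 in the table). Of the 6 markers of plasmacytoid dendritic cells, a main source of interferon, 3 were in the table. They summed to means of 369, 400.4 and 357 CPM, nearly all of it from Bst2 and Tcf4. Bst2 is also among the other interferon targets counted below. Ccr9, the remaining marker in the table, averaged 0.620, 0 and 2.32 CPM. The part of any of these in the results was not tested.

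All 10 effector genes had a higher mean level in each co-culture than in microglia alone. Ifit3, Rsad2, Oasl1 and Mx1 rose with untreated neurons, and Rsad2 rose with fibril-loaded neurons. Levels are given as CPM after edgeR's TMM scaling. The kit reads a tag near the poly(A) tail of each transcript, so levels are not divided by gene length and are compared here only between libraries, gene by gene. In bulk RNA, fewer cells of a type and less RNA per cell cannot be told apart. Summed over the 10 genes, the level was 387 ± 149 CPM (SD, n = 4) in microglia alone. It was 1874 ± 823 CPM (n = 3) beside untreated neurons and 1346 ± 864 CPM (n = 4) beside fibril-loaded ones. The sums alone, between 259.9 and 594 CPM, did not overlap with those of the untreated co-culture, between 1242 and 2805 CPM, or of the fibril co-culture, between 805 and 2635 CPM. The sum is weighted towards the genes with the most counts. Rsad2 made up 20.1% to 31.7% of it alone, 37.3% to 44.1% with untreated and 29.4% to 45.9% with fibril-loaded neurons. Ifit3 made up 15.3% to 21.4%, 18.2% to 21.3% and 16.4% to 23.3% in the same order.

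**Figure D2:**
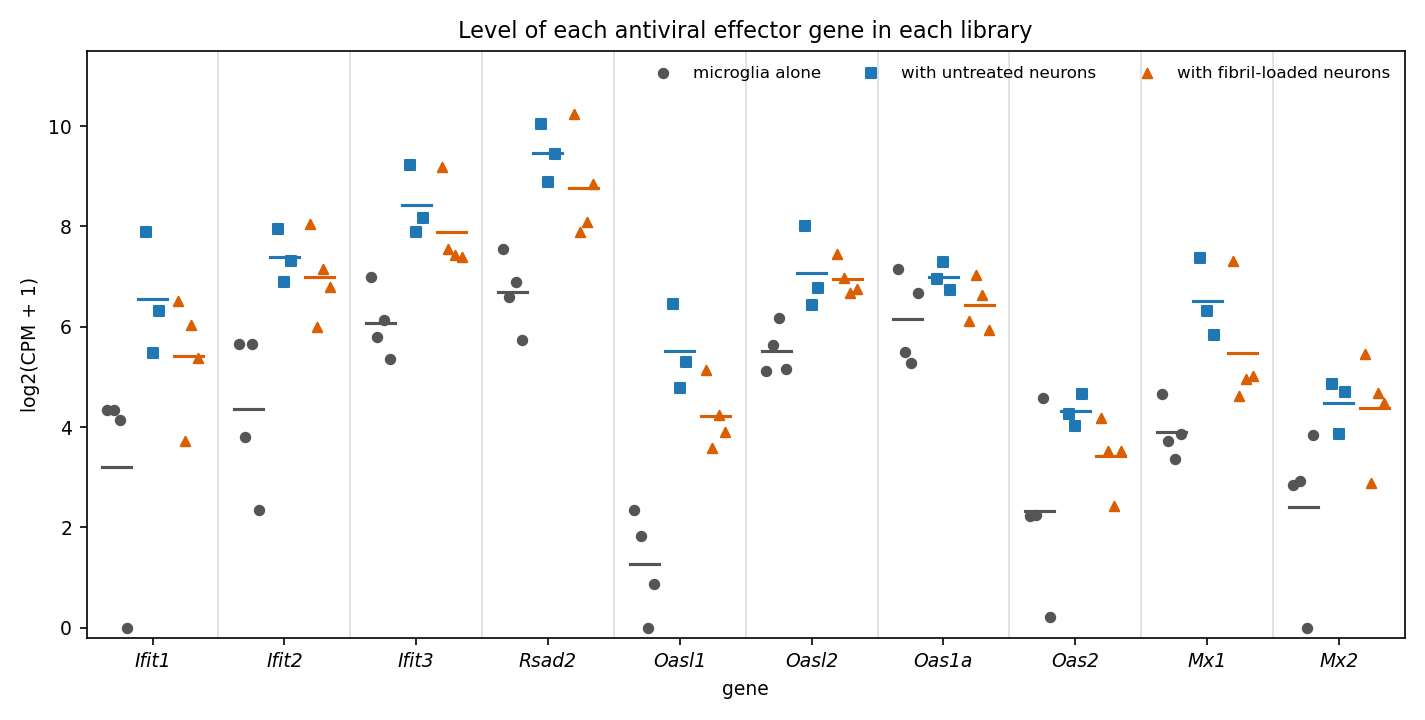
Level of each of the 10 genes as log2(CPM + 1) in each of 11 libraries, with grey circles for microglia alone (4), blue squares for microglia with untreated neurons (3), orange triangles for microglia with fibril-loaded neurons (4), and a line at each group's mean. Libraries with untreated neurons lie wholly above microglia alone for 8 genes and libraries with fibril-loaded neurons for 5, while the points of Oas1a and Oas2 overlap.

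Ifit1, the founding member of the IFIT family, binds viral RNA that lacks a methylated cap. Its level was 19.3, 19.1, 16.7 and 0 CPM in microglia alone, 237, 43.3 and 78.8 CPM with untreated neurons and 90, 12.1, 64.2 and 40.8 CPM with fibril-loaded neurons, in the order of libraries 1 to 3 or 4. Library 4 of microglia alone had no read of Ifit1, which allows up to 0.251 CPM, and every library with untreated neurons was above every library alone, while library 2 with fibril-loaded neurons lay among them. The difference did not pass for untreated neurons (log2 fold change 3.11, SE 0.92, edgeR adjusted p = 0.157) or for fibril-loaded neurons (log2 fold change 1.91, SE 0.85, edgeR adjusted p = 0.576). Limits that a count of 0 allows are taken as 3 counts in the library and cover counting error only.

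Ifit2, a partner of the other IFIT proteins, measured 49.3, 12.99, 49.3 and 4.10 CPM in microglia alone, 246, 117 and 157 CPM with untreated neurons and 264, 62.9, 140.2 and 110.2 CPM with fibril-loaded neurons. All 7 co-culture libraries were above all 4 libraries of microglia alone. Ifit2 did not pass in either co-culture taken by itself (log2 fold change 2.58, SE 0.61, edgeR adjusted p = 0.0524 with untreated neurons, log2 fold change 2.32, SE 0.58, edgeR adjusted p = 0.108 with fibril-loaded neurons), and it passed in the mean of both co-cultures against microglia alone (log2 fold change 2.45, SE 0.55, edgeR adjusted p = 0.0330). It lost that call in 4 of 11 fits that each left out a library, with an adjusted p of up to 0.102 by edgeR without library 2 of microglia alone, and values of 0.0569, 0.0517 and 0.0532 without fibril libraries 1 and 3 and library 4 alone.

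Ifit3, another member of the IFIT family, measured 127, 54.7, 69.3 and 39.7 CPM in microglia alone, 598, 235 and 287 CPM with untreated neurons and 578, 187, 170.3 and 167 CPM with fibril-loaded neurons. All co-culture libraries again exceeded all libraries of microglia alone, and library 1 of each co-culture stood well above the others. Ifit3 rose 5.13-fold with untreated neurons (log2 fold change 2.36, SE 0.47, edgeR adjusted p = 0.0165). The difference with fibril-loaded neurons did not pass (log2 fold change 1.92, SE 0.44, edgeR adjusted p = 0.0742), and Ifit3 passed in the mean of both (log2 fold change 2.14, SE 0.42, edgeR adjusted p = 0.0109). Leaving out library 1 of the untreated co-culture lowered the first value to 1.85 with an edgeR adjusted p of 0.127, and the call was also lost without library 2 (0.0653) or library 4 (0.0693) of microglia alone. In the mean of both, leaving out either of those 2 microglia-alone libraries likewise ended the call, with adjusted p of 0.0515 and 0.0537.

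Rsad2, the gene of viperin, was called in all 3 comparisons with microglia alone. It measured 185, 95, 117 and 52.3 CPM in microglia alone, 1046, 471 and 694 CPM with untreated neurons and 1209, 237, 272 and 458 CPM with fibril-loaded neurons. No co-culture library reached down to the highest library alone. Rsad2 rose 6.56-fold with untreated neurons (log2 fold change 2.71, SE 0.49, edgeR adjusted p = 0.00798), 4.84-fold with fibril-loaded neurons (log2 fold change 2.27, SE 0.46, edgeR adjusted p = 0.0259) and 5.63-fold in the mean of both (log2 fold change 2.49, SE 0.44, edgeR adjusted p = 0.00526). The call held in all 7 fits that left out a library for untreated neurons and in all 11 for the mean of both. With fibril-loaded neurons it did not: without library 1 of that group the value was 1.52 with an edgeR adjusted p of 0.144, and without libraries 2, 3 or 4 of microglia alone the adjusted p was 0.101, 0.0687 and 0.126.

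Oasl1 and Oasl2 encode OAS-like proteins with ubiquitin-like tails. Oasl1, which restrains translation of Irf7, measured 4.07, 2.58, 0 and 0.836 CPM in microglia alone, 86.3, 26.5 and 38.2 CPM with untreated neurons and 34.1, 10.98, 17.8 and 14 CPM with fibril-loaded neurons. It was nearly silent alone, with no count in library 3 (up to 0.266 CPM), and every co-culture library exceeded every library alone. Oasl1 rose with untreated neurons (log2 fold change 4.74, SE 1.10, edgeR adjusted p = 0.0494) and did not pass with fibril-loaded neurons (log2 fold change 3.35, SE 1.02, edgeR adjusted p = 0.226) or in the mean of both (log2 fold change 4.05, SE 1.01, edgeR adjusted p = 0.0544). The call with untreated neurons was lost in 5 of 7 fits without a library: without library 1, 2 or 4 of microglia alone or library 1 or 3 of the co-culture, at adjusted p of 0.0667, 0.105, 0.131, 0.289 and 0.0904 by edgeR. Its value ran from 4.11 without library 1 of the co-culture to 5.46 without library 1 of microglia alone. Its exons share 38 of 2608 bases with the antisense gene Gm13822.

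Oasl2 measured 33.8, 48.6, 71.5 and 34.5 CPM in microglia alone, 258, 85.5 and 109 CPM with untreated neurons and 174, 124, 101 and 106 CPM with fibril-loaded neurons. The co-cultures did not overlap with microglia alone, and library 1 was the highest of each co-culture. It did not pass in a single co-culture (log2 fold change 1.68, SE 0.40, edgeR adjusted p = 0.0614 with untreated neurons, log2 fold change 1.42, SE 0.38, edgeR adjusted p = 0.144 with fibril-loaded neurons) and rose in the mean of both (log2 fold change 1.55, SE 0.35, edgeR adjusted p = 0.0340). That call was lost in 7 of the 11 fits without a library, with an adjusted p of up to 0.135 by edgeR without library 1 of microglia alone. The other 6 libraries that ended it were libraries 2 and 4 of microglia alone, library 1 with untreated neurons and libraries 1, 2 and 4 with fibril-loaded neurons, at adjusted p of 0.0898, 0.120, 0.0900, 0.0602, 0.0585 and 0.0524.

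Oas1a and Oas2 encode oligoadenylate synthetases, and neither passed in any comparison by edgeR. Oas1a measured 141, 43.9, 37.6 and 101 CPM in microglia alone, 122, 156 and 105 CPM with untreated neurons and 68.1, 130.0, 98.3 and 60.3 CPM with fibril-loaded neurons. Its 3 groups overlapped, and library 1 of microglia alone was above all but 1 of the co-culture libraries. The differences were 0.66 with untreated neurons (95% interval -0.24 to 1.55) and 0.14 with fibril-loaded neurons (-0.69 to 0.97) on the log2 scale, with edgeR adjusted p of 0.681 and 1.

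Oas2 measured 3.68, 3.77, 22.8 and 0.167 CPM in microglia alone, 18.3, 15.2 and 24.3 CPM with untreated neurons and 17.2, 10.5, 4.41 and 10.6 CPM with fibril-loaded neurons. Library 3 of microglia alone was near the top of the co-cultures while the other 3 libraries alone were below every co-culture library. Its intervals were wide, -1.37 to 4.06 with untreated neurons and -2.04 to 3.02 with fibril-loaded neurons, around log2 fold changes of 1.34 and 0.49 (edgeR adjusted p = 0.895 and 1). These intervals hold both 0 and the values of Rsad2.

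Mx1 measured 24.1, 12.2, 9.30 and 13.6 CPM in microglia alone, 165, 78.4 and 56.2 CPM with untreated neurons and 158, 23.7, 30.2 and 31.2 CPM with fibril-loaded neurons. With untreated neurons every library was above microglia alone. With fibril-loaded neurons library 1 stood far above the other 3, and library 2 fell just under the highest library alone. Mx1 rose 6.75-fold with untreated neurons (log2 fold change 2.75, SE 0.62, edgeR adjusted p = 0.0454), did not pass with fibril-loaded neurons (log2 fold change 2.03, SE 0.58, edgeR adjusted p = 0.194) and rose in the mean of both (log2 fold change 2.39, SE 0.56, edgeR adjusted p = 0.0369). The call with untreated neurons was lost in 5 of 7 fits without a library, at adjusted p of 0.0667, 0.109, 0.102 and 0.122 by edgeR without libraries 1 to 4 of microglia alone and 0.245 without library 1 of the co-culture. In the mean of both it was lost in 6 of 11, without each library of microglia alone (0.0625, 0.108, 0.108 and 0.116) and without library 1 of the untreated (0.0907) or fibril co-culture (0.0613).

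Mx2 measured 6.19, 6.64, 0 and 13.3 CPM in microglia alone, 28.2, 13.6 and 24.9 CPM with untreated neurons and 42.6, 6.42, 24.8 and 21.4 CPM with fibril-loaded neurons. Library 3 of microglia alone had no count (up to 0.266 CPM), the lowest library with untreated neurons lay just above library 4 alone, and library 2 with fibril-loaded neurons lay within the range alone. Neither difference passed (log2 fold change 1.77, SE 1.16, edgeR adjusted p = 0.681 with untreated neurons, log2 fold change 1.87, SE 1.11, edgeR adjusted p = 0.813 with fibril-loaded neurons).

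Set against the background of all genes, 4 of the 10 effectors were called higher with untreated neurons (Ifit3, Rsad2, Oasl1 and Mx1; edgeR, BH-adjusted p below 0.05), where 0.461% of the 11276 tested genes were. Ranges did not overlap, with the co-culture higher, for 8 of 10, against 4.9% of tested genes. The members' median log2 fold change was 2.47, that of all genes -0.052, and none of the 10 was negative, while 47.7% of all genes were above 0.

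With fibril-loaded neurons 1 of the 10, Rsad2, was called higher, where 0.266% of tested genes were. Ranges stood apart for 5 of 10 (Ifit2, Ifit3, Rsad2, Oasl1 and Oasl2), against 2.7% of tested genes. The median was 1.92 against -0.040 over all genes, and 10 of 10 estimates were positive. At an unadjusted p below 0.05, 7 of 10 passed in this comparison, as did 918 of the 11276 genes, and 7 of 10 with untreated neurons, as did 1164 genes. DESeq2 called 5 members among 276 genes with fibril-loaded neurons and 7 members among 503 genes with untreated neurons.

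Both comparisons share the libraries of microglia alone, so they are not independent of one another. In the mean of both co-cultures against microglia alone, 5 of 10 were called higher (Ifit2, Ifit3, Rsad2, Oasl2 and Mx1), where 0.603% of tested genes were, and 5 of 10 had all co-culture libraries above all libraries alone, where 1.21% of tested genes did. The median was 2.27, against -0.089 for all genes. When library 1 of every group, the one with the fewest detected genes, was left out of all 3 groups, 2 members were called in each of these 3 comparisons, Rsad2 and Ifit3 each time. That check was chosen after the data were seen.

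**Figure D3:**
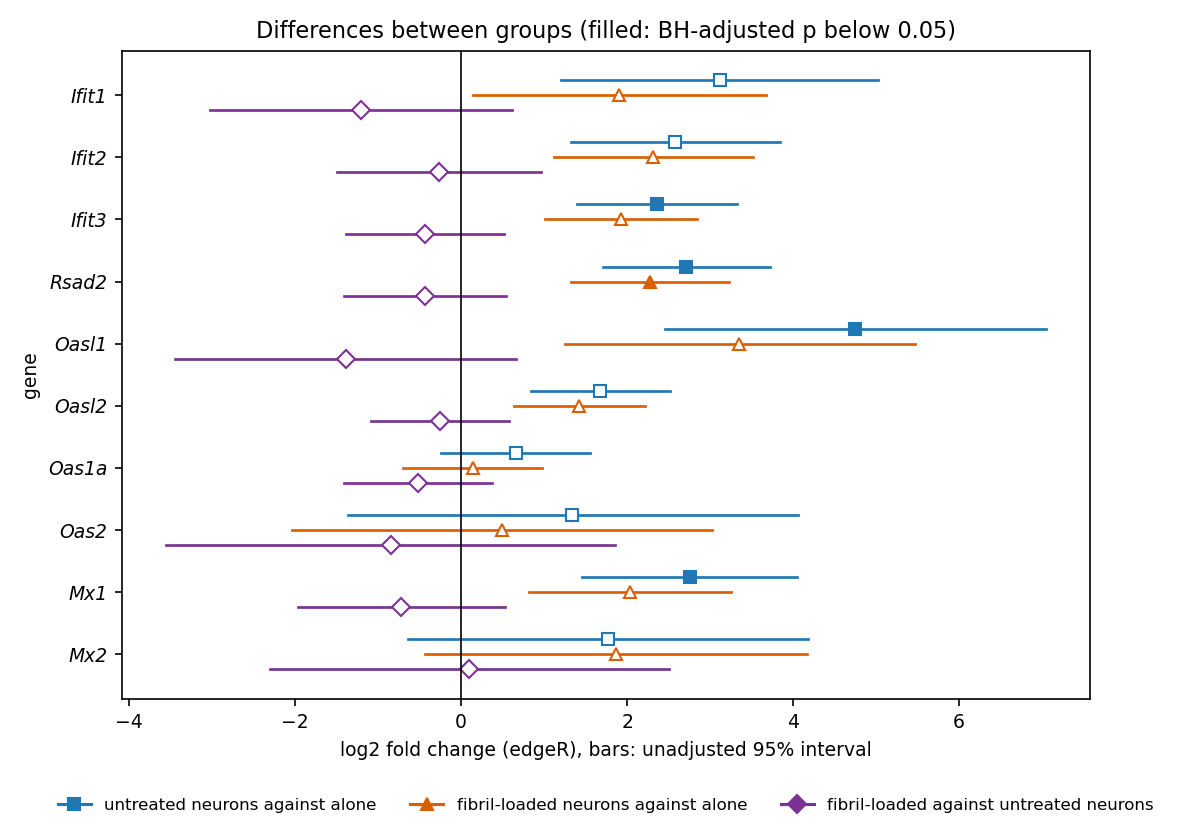
Log2 fold change of each gene by edgeR with its unadjusted 95% interval, for untreated neurons against alone (blue squares), fibril-loaded neurons against alone (orange triangles) and fibril-loaded against untreated neurons (purple diamonds). Filled symbols passed a BH-adjusted p of 0.05 over 11276 genes, which 4, 1 and 0 of the 10 did, and 9 of the 10 purple estimates are below 0 with every interval spanning 0.

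Whether fibrils in the neurons changed the effectors was addressed by the 2 co-cultures. No member passed: 0 of 10 were called lower, where 0 (0%) of 11276 tested genes were by edgeR, and 0 of 10 had ranges apart with the fibril libraries lower, where 2.3% of tested genes did. No member and 445 of all genes had an unadjusted p below 0.05. DESeq2 called no member either, while it called 207 of all genes. Of the 10 estimates 9 were below 0, with a median of -0.48 against 0 over all genes, and every interval spanned 0.

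The intervals give the size of difference these libraries could leave unseen. Rsad2 differed by -0.44 (-1.42 to 0.54), Ifit3 by -0.44 (-1.39 to 0.51) and Oasl2 by -0.25 (-1.09 to 0.58) on the log2 scale. Ifit2 differed by -0.27 (-1.49 to 0.96), Mx1 by -0.72 (-1.97 to 0.53), Ifit1 by -1.21 (-3.03 to 0.62) and Oasl1 by -1.39 (-3.44 to 0.67). The widest were Oas2 at -0.85 (-3.56 to 1.85) and Mx2 at 0.099 (-2.30 to 2.50), with Oas1a at -0.52 (-1.41 to 0.38). The co-cultures were therefore not shown to differ in these genes, nor to be alike.

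Library 1 of each co-culture moved these values. Without library 1 of the fibril co-culture the differences were -1.19 for Rsad2, -1.09 for Ifit3 and -1.82 for Mx1. Without library 1 of the untreated co-culture Ifit2, Ifit3 and Oasl2 turned to 0.089, 0.095 and 0.40. No member passed in either case.

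The members were high in the same libraries. Within the fibril co-culture library 1 was highest for 9 of the 10 genes, all but Oas1a, and within the untreated co-culture library 1 was highest for 8 of 10 and library 2 lowest for 8. Library 1 of microglia alone was highest in its group for 7. These 3 libraries also had the fewest detected genes of their groups, 9157, 9740 and 9784, and the highest share of Rn45s, 17.0%, 15.7% and 24.8%. The sequencing identifiers in the labels run in steps of 7 within each group. Those of the 2 co-cultures follow one another directly for library 1, and likewise for library 2 and library 3. The identifier of library 1 of microglia alone does not adjoin those of library 1 of the co-cultures. What the identifiers mean is not stated, and the part of detection, ribosomal share or identifier in the members' level was not tested.

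**Figure D4:**
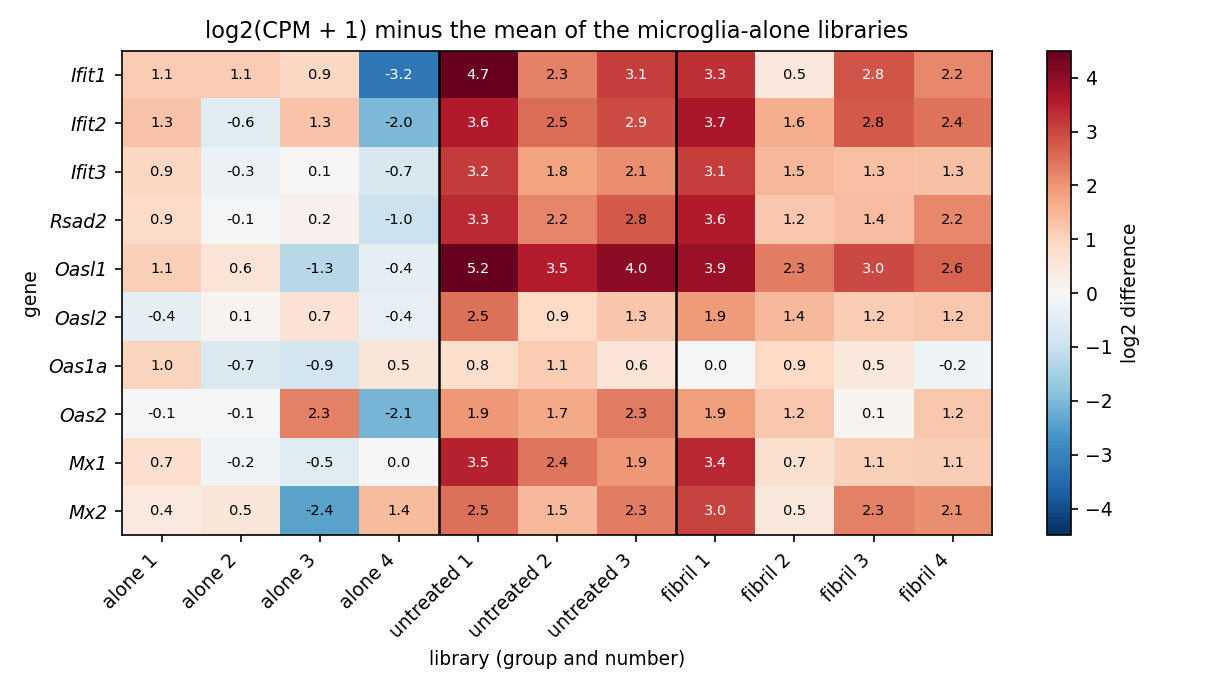
Heat map of log2(CPM + 1) of each of the 10 genes (vertical) in each of 11 libraries (horizontal), minus the mean of the 4 libraries of microglia alone, from blue (lower) to red (higher). Library 1 is the highest of its group for 8 genes with untreated neurons and for 9 with fibril-loaded neurons.

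Across all 11 libraries, Pearson's r of log2(CPM + 1) between pairs of members had a median of 0.75 over 45 pairs, from -0.10 to 0.98, and 43 were positive. After each group's mean was removed, the median was 0.46, from -0.67 to 0.92, with 35 positive. These are descriptions over libraries that share groups and depth. Rsad2 and Ifit3 tracked the mean of the other members most closely, at r of 0.98 each over the libraries and 0.94 for Rsad2 and 0.93 for Ifit3 within groups. Oas1a tracked it least, at 0.30, and at -0.26 within groups, with Mx2 at 0.59 and 0.048 and Oas2 at 0.63 and 0.25.

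Near-identical copies limit what a count per symbol means for some members. The sequenced tags come from transcript ends, so the last 300 bases of the longest coding transcript were cut into every 50-base word and each word was sought in the transcripts of all other genes. Oas1a shared 21.1% of these words with Oas1g, and 3.10% of 75-base words. Ifit3 shared 0.398% with Ifit3b and none at 75 bases, although 51.2% of the words over its whole transcript were in Ifit3b. For Oas1a the whole-transcript share with other genes was 57.6%. The other 8 members shared no 50-base word in their last 300 bases. Over whole transcripts Ifit1 shared 7.14% (mostly with Ifit1bl2), Mx1 4.77% and Mx2 6.55% (with one another), and the others none. Counts of Oas1a and Oas1g are therefore uncertain as a split between the copies. Whether strand was used in counting is not given in the sources used here.

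Of 15 relatives and partners on a fixed list, 10 were in the table and 8 were tested. Of these, 1 was called higher with untreated neurons, none was called higher with fibril-loaded neurons or between the co-cultures, and 1 was called higher in the mean of both. Over all tested genes 0.461% were called higher with untreated neurons, 0.266% with fibril-loaded neurons and 0.603% in the mean of both. Ifit3b, the near-copy of Ifit3, measured 25.7 ± 11.1 CPM in microglia alone, 149 ± 102 with untreated neurons and 92.6 ± 87.7 with fibril-loaded neurons, and it was called higher with untreated neurons and in the mean of both (log2 fold change 2.19, SE 0.51, edgeR adjusted p = 0.0356). The latter call was lost in 6 of 11 fits without a library, namely each library of microglia alone (0.0683, 0.115, 0.0739 and 0.139) and library 1 of the untreated (0.0836) or fibril co-culture (0.0562). It did not pass either once library 1 of each group was left out (log2 fold change 1.69, adjusted p = 0.119). Oas1g, the near-copy of Oas1a, measured 15.1 ± 10.98 CPM in microglia alone, 18.2 ± 26.8 with untreated neurons and 35.96 ± 36.5 with fibril-loaded neurons and did not pass. Cmpk2, a nucleotide kinase gene that lies next to Rsad2 on the other strand, measured 27.3 ± 11.6 CPM in microglia alone, 109.9 ± 56.9 with untreated neurons and 96.9 ± 72.9 with fibril-loaded neurons and did not pass (log2 fold change 1.92, SE 0.48, edgeR adjusted p = 0.0606 in the mean of both).

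The pathway that feeds the effectors was read from a list of 71 genes, of which 57 were in the table and tested. None of the 10 interferon ligand genes on the list was in the table under its symbol, so they were not analysed here. Of the 57, 4 were called higher with untreated neurons, 0 with fibril-loaded neurons and 3 in the mean of both, and none was lower. Of the 11276 tested genes, 0.461%, 0.266% and 0.603% were called higher in these comparisons, and 20, 6 and 48 genes were called lower. None was called between the co-cultures. The median log2 fold change of the 57 was 0.82, 0.70 and 0.79 in the 3 comparisons with microglia alone, and 48, 50 and 51 were positive. Over all tested genes the medians were -0.052, -0.040 and -0.089, and 47.7%, 47.9% and 45.1% were positive.

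Of the 5 receptor genes none was called. Ifnar1, a chain of the type I interferon receptor, measured 90.1 ± 34.9 CPM in microglia alone, 185 ± 9.77 with untreated neurons and 222 ± 54.7 with fibril-loaded neurons (log2 fold change 1.17, SE 0.29, edgeR adjusted p = 0.0525 in the mean of both). Ifnar2, the other chain, measured 192 ± 46.7 CPM in microglia alone, 314 ± 32.7 with untreated neurons and 341 ± 54.2 with fibril-loaded neurons (log2 fold change 0.77, SE 0.24, edgeR adjusted p = 0.148). Both had all co-culture libraries above all libraries alone, as did 1.21% of tested genes. Ifngr1, the ligand-binding chain of the type II receptor, went the other way at 175 ± 72.9 CPM in microglia alone, 95.6 ± 29.1 with untreated neurons and 87.7 ± 7.78 with fibril-loaded neurons and did not pass (log2 fold change -0.94, SE 0.29, edgeR adjusted p = 0.142).

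The kinases Jak1, Jak2 and Tyk2 and the 8 transcription factors had no call. Among the factors, Irf7, the amplifier of the interferon response, measured 34.4 ± 15.6 CPM in microglia alone, 114 ± 14.9 with untreated neurons and 80.4 ± 29.6 with fibril-loaded neurons (log2 fold change 1.47, SE 0.36, edgeR adjusted p = 0.0530 in the mean of both). Stat2, another subunit of ISGF3, measured 31.3 ± 5.54 CPM in microglia alone, 85.4 ± 47.8 with untreated neurons and 57.7 ± 29.2 with fibril-loaded neurons (log2 fold change 1.17, SE 0.41, edgeR adjusted p = 0.225). Irf9 measured 94.1 ± 34.1 CPM in microglia alone, 105 ± 38.2 with untreated neurons and 106 ± 46.8 with fibril-loaded neurons.

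Of 5 inhibitors of the response none was called. Usp18, which blocks the receptor, measured 3.05 ± 2.78 CPM in microglia alone, 23.8 ± 10.2 with untreated neurons and 29.7 ± 28.4 with fibril-loaded neurons, and Isg15, a ubiquitin-like protein, 66.4 ± 69.3 CPM in microglia alone, 211 ± 99.3 with untreated neurons and 199.8 ± 172 with fibril-loaded neurons. Among 10 sensors and adaptors Ddx58, which encodes the RNA sensor RIG-I, was called higher with untreated neurons (log2 fold change 2.28, SE 0.50, edgeR adjusted p = 0.0411) and did not pass in the mean of both (adjusted p = 0.0618). Leaving out library 1 of the untreated co-culture gave a value of 1.51 with an adjusted p of 0.361, and without library 1, 2 or 4 alone it was 0.116, 0.108 and 0.105 by edgeR.

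Of 26 other targets 3 were called. Cxcl10, a chemokine that attracts T cells, rose in the mean of both (log2 fold change 3.21, SE 0.72, edgeR adjusted p = 0.0330), at 14.5 ± 17.4 CPM in microglia alone, 204 ± 191 with untreated neurons and 88.97 ± 57 with fibril-loaded neurons. Gbp2, a guanylate-binding GTPase, rose in the same comparison (log2 fold change 2.49, SE 0.57, edgeR adjusted p = 0.0333), at 8.39 ± 5.85 CPM in microglia alone, 67.3 ± 14.8 with untreated neurons and 33.3 ± 9.21 with fibril-loaded neurons. Phf11b, a PHD finger gene, rose too (log2 fold change 2.04, SE 0.39, edgeR adjusted p = 0.00986), at 27.1 ± 10.97 CPM in microglia alone, 126 ± 23.2 with untreated neurons and 98.9 ± 52.3 with fibril-loaded neurons. These 3 were also the ones called with untreated neurons. Phf11b kept its call in all 11 fits without a library. Cxcl10 lost it in 6 of 11, at adjusted p of 0.0515 to 0.116, without libraries 1, 2 or 4 of microglia alone, untreated library 1 or fibril libraries 1 or 3. Gbp2 lost it in 8 of 11, at 0.0509 to 0.0945, without libraries 1, 2 or 4 of microglia alone, any untreated library or fibril libraries 3 or 4. Without library 1 of each group the mean of both gave adjusted p of 0.200 for Cxcl10 (log2 fold change 2.12), 0.134 for Gbp2 and 0.0822 for Phf11b.

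The genes whose pattern was most like the effectors were found by Pearson's r with the members' mean log2(CPM + 1) over the 11 libraries, among 11266 other genes. The 5 most alike were Ifit3b (r = 0.956), Slc43a2 (0.946), Slfn5 (0.938), Zbp1 (0.933) and Ifi203 (0.924). Within groups their r was 0.937, 0.765, 0.933, 0.897 and 0.817. Ranked by Spearman's rho, 1 of these, Ifit3b at 0.973, was among the first 5. Slc43a2 encodes an amino acid transporter, Slfn5 a Schlafen protein, Zbp1 a sensor of Z-form nucleic acid and Ifi203 a member of the HIN-200 family.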

How the data were processed

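Primary microglia were sequenced with a 3′ mRNA kit (QuantSeq FWD), per the labels' protocols. The raw counts by gene symbol that the authors deposited were used for all values. They also deposited a normalized table, treated as a score: every value is the count divided by a size factor of its library, within rounding, for 100% of values. Tools named in the submitters' processing notes are STAR, Partek and DESeq2, and the build is mm10. Versions, use of strand and treatment of duplicate reads are not given in the sources used here.

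The counts went through edgeR 4.0.16 (R 4.3.3): filterByExpr (11276 of 16934 genes kept, of which 2828 had no count anywhere), TMM scaling and the quasi-likelihood test, two-sided, fitted by group on all 11 libraries, and BH adjustment over the 11276 genes at 0.05. The common biological coefficient of variation was 1.15. Errors are SD over libraries or edgeR's SE, and intervals are 95%. The code was tested on simulated data. Some listed genes are not reported here. The members, lists and comparisons were chosen with earlier results of these data known. Members are described one by one, relatives and pathway genes by count with called ones and those of defining role named, and the 5 most alike genes by r. Promoters are from RefSeq (GRCm38.p6), positions and transcripts from GENCODE M21. Alternatives were another scaling (RLE), every gene with a count, genes of mean CPM 5 or more, DESeq2 1.42.0, limma 3.58.1 on log2(normalized value + 1), only the compared groups, no Rn45s, and each library left out in turn. Chosen after the data were seen were the removal of library 1 (fewest genes detected) from all groups and the identifier series as a block.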

Additional observations from a re-analysis of the deposited data

Results flagged for a closer look

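In groups of 4 libraries, a gene was singled out where the highest or lowest library lay far enough from the nearest other to pass Dixon's criterion at 95%. Chance does so in about 1 of 20 groups of normally distributed values. The CPM were not transformed and the genes share libraries, so that rate is no yardstick for the number found here. Of 20 groups of 4 libraries examined, 4 met it. Ifit1 was at 0 CPM in library 4 of microglia alone, where the next lowest library had 16.7 CPM. Ifit3 was at 578 CPM in library 1 with fibril-loaded neurons, where the next had 187 CPM. Mx1 was at 158 CPM in that same library, where the next had 31.2 CPM. Oas2 was at 22.8 CPM in library 3 of microglia alone, where the next had 3.77 CPM.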

How the results depend on the processing

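Every estimate of a member against microglia alone was positive in all settings, with exceptions for fibril-loaded neurons: Oas1a, whose value ran from -0.10 to 0.56 as each library was left out (below 0 without fibril library 2 and without libraries 2 and 3 alone), and Oas2, at -0.038 without library 1 of all groups. Between the co-cultures, where no setting called a member, leaving out each library gave -0.73 to 0.089 for Ifit2, -1.09 to 0.095 for Ifit3, -0.53 to 0.40 for Oasl2 and -0.34 to 0.41 for Mx2. The first 3 were above 0 without untreated library 1, and Mx2 was below 0 without fibril library 1 or untreated library 2. Without library 1 of all groups Oasl2 was 0.18 and Mx2 -0.15. Mx2 was -0.12 with limma and -0.40 with the identifier block.

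With untreated neurons 72 genes and 4 members were called. Without a count filter these were 234 and 7, at a mean CPM of at least 5 47 and 2, by DESeq2 503 and 7, and without library 1 of all groups 29 and 2. With only the compared groups 41 genes were called. With fibril-loaded neurons 36 genes and 1 member became 164 and 7 without a filter, 276 and 5 by DESeq2, and 66 and 3 with the identifier block. Members there were 0 of 26 genes called at a mean CPM of at least 5, 3 of 40 by limma, 0 of 29 with only the compared groups and 2 of 27 without library 1 of all groups. Between the co-cultures 0 genes became 5 without a filter, 207 by DESeq2 and 1 without library 1 of all groups. In the mean of both, 116 genes and 5 members became 341 genes without a filter, 583 by DESeq2, 177 with the identifier block, 3 members of 93 genes at a mean CPM of at least 5, and 59 and 2 without library 1 of all groups. The cause was not tested.

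Leaving out a library gave 32 to 76 genes and 1 to 6 members with untreated neurons, 23 to 42 and 0 to 2 with fibril-loaded neurons, 0 to 1 and 0 to 0 between the co-cultures, and 55 to 106 and 1 to 5 in the mean of both. The labels give no replicate numbers to pair libraries by. The identifier block, a fit with the 4 series of identifiers as a term, stands in for such a fit without knowledge that a series shares a culture. Deviations from group means over all tested genes correlated at -0.02 to 0.07 (median 0.04) in 10 pairs of one series and at -0.05 to 0.05 (median -0.02) in 30 pairs of different series.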
